A study of Mus with 6 samples.

Results

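A set of 10 genes known as markers of thalamus and septum was followed in mouse brain tissue labelled as basolateral amygdala, taken from wild-type (WT) mice and from mice labelled CNTNAP4-KO (KO), that is, with the gene Cntnap4 knocked out. They were chosen by name, with earlier results of these data known. All 10 were found among the 54532 genes of the deposited table: Tcf7l2, Lef1, Zic1, Prkch, Rgs16, Ramp3, Plekhg1, Slitrk6, Synpo2 and Tnnt1. RNA sequencing covered 3 WT and 3 CNTNAP4-KO libraries, every one labelled male and none labelled as treated. The sources used here do not give strain, age, the knockout allele or how many mice went into a library. Values are FPKM, fragments per kilobase of gene relative to a size assigned to each library, so levels can be set side by side between genes. Values of a group are listed in the order of replicates 1, 2 and 3 throughout. The labels tell the mice of a group apart by number only, and the p-values reflect only how far these samples vary, which may be technical.

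The thalamus relays sensory and motor signals to cortex, and its glutamatergic neurons keep a gene programme of their own into adulthood. Tcf7l2 and Lef1 belong to the TCF/LEF family of HMG-box transcription factors, which act with beta-catenin downstream of Wnt signals, and both mark adult thalamic neurons. Tcf7l2 is needed for thalamic and habenular neuron identity and is also made in the oligodendrocyte lineage. The zinc-finger factor Zic1 is a marker of septum, and of some thalamic neurons. The basolateral amygdala, by contrast, is built mainly from pallial excitatory neurons, which carry Slc17a7 and Neurod factors.

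Libraries held 17647556 to 20813211 reads in genes. The library labelled KO replicate 1 had 43.0 FPKM of Xist, which the inactive X chromosome transcribes in female cells, and 0 reads on 4 Y-linked genes, where the other 5 had at most 0.0346 FPKM and 2831 to 4001 reads. That goes against its label of male. KO replicate 2 stood apart in regional markers. Its summed FPKM over 16 hypothalamic genes was 25.4, where the other 5 libraries had 370.6 to 1113, and its sum over 16 pallial excitatory genes was 989, where the others had 394 to 683. Avp made up most of the hypothalamic sum in the other 5 libraries, at 325 to 894 FPKM, and was at 2.20 FPKM in KO replicate 2. Not every hypothalamic gene was low there, as Cartpt was at 8.57 FPKM and the other 5 libraries had 7.69 to 14.9. The WT libraries differed among themselves too, with 6.90%, 8.14% and 3.42% of reads from mitochondrial genes. The KO libraries had 5.63% to 6.28%. Slc17a7, the vesicular glutamate transporter of pallial neurons, lay between 5.37 and 6.42 FPKM in WT and between 19.1 and 94.3 FPKM in KO, so this marker of the labelled tissue was lower in every WT library. Cntnap4 itself was at 2.03, 3.59 and 4.91 FPKM in the WT libraries, and the KO libraries had 1.61, 1.00 and 1.48 FPKM. The groups did not overlap, and the difference did not pass limma's test (adjusted p = 0.22).

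All 10 genes were transcribed in every library, at low to moderate levels. Zic1 had the highest level, with a mean of 9.27 FPKM over the 6 libraries, and ranked 5389 of all genes. Rgs16 followed at 4.15, Prkch at 3.36, Ramp3 at 3.20, Tcf7l2 at 2.89 and Plekhg1 at 2.03 FPKM. Synpo2 at 1.08, Slitrk6 at 0.907, Tnnt1 at 0.812 and Lef1 at 0.550 FPKM came last. Zic1 was above Rgs16 and Plekhg1 above Synpo2 with no overlap of their ranges over libraries, and these were the only 2 such steps in the order. Tcf7l2 exceeded Plekhg1 in each of the 6 libraries although their ranges overlapped. The summed level of the 10 genes was 27.5 to 32.6 FPKM in WT and 26.4 to 27.6 FPKM in KO. All 10 passed the filter of a mean of 0.5 FPKM, Lef1 closest to it. The annotation gives all 10 as protein-coding genes, spread over 9 chromosomes. Lef1 and Synpo2 share chromosome 3, 7.87 megabases apart.

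**Figure D1:**
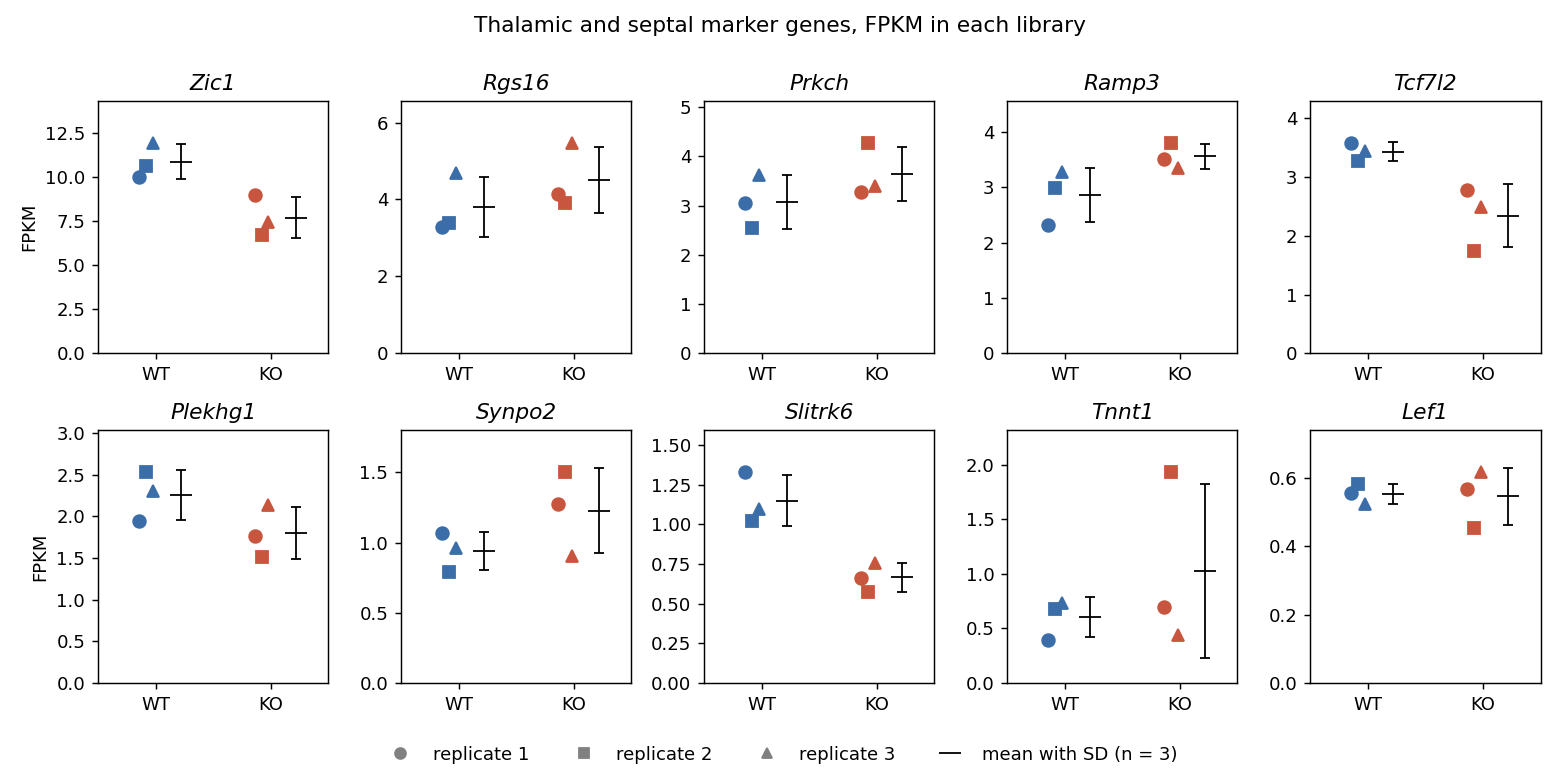
Level of each gene in FPKM (vertical axis, from 0) in the 3 WT and 3 KO libraries, with marker shape for the replicate number and the mean with SD beside the points. The 3 KO points lie below the 3 WT points for Zic1, Tcf7l2 and Slitrk6 and above them for Ramp3, and the remaining 6 genes overlap.

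None of the 10 genes passed the test between KO and WT. The test was limma on log2(FPKM + 0.5) over 16155 genes, with Benjamini-Hochberg adjustment and a threshold of 0.05. Of all genes tested, 0.0124% passed. The lowest adjusted p among the 10 was 0.207, for Zic1. At an unadjusted p under 0.05 there were 3, all lower in KO, namely Zic1, Slitrk6 and Tcf7l2. Of all genes tested, 15.2% reached that level, 6.85% lower and 8.36% higher in KO. KO and WT values did not overlap for 4 of the 10, 3 lower and 1 higher in KO. The same held for 22.6% of all genes tested, 10.8% lower and 11.8% higher. The median log2 difference of the 10 was 0.10 with 5 positive and 5 negative values, and the median of all genes tested was 0.0067. The genes thus did not share a direction.

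Among the transcription factors, Zic1 and Tcf7l2 had lower values in every KO library and Lef1 did not. Zic1 (ENSMUSG00000032368, chromosome 9, 91358058 to 91365810, minus strand, GRCm38) was at 10.01, 10.6 and 11.9 FPKM in the WT libraries. In the KO libraries it was at 8.96, 6.68 and 7.44 FPKM, so each KO library lay below each WT library and KO replicate 1 lay nearest to WT. The means were 10.9 ± 0.985 and 7.69 ± 1.16 FPKM (SD, n = 3 each), so the KO mean was 70.9% of that in WT. On the log2 scale KO differed by -0.48 ± 0.12 (standard error), with a 95% interval of -0.76 to -0.20 and a limma adjusted p of 0.207. An exact permutation test, two-sided, gave p = 0.1, which is the least that 3 against 3 can reach. These values rest on 688 to 1477 reads per library. In bulk tissue, fewer cells of a type and less RNA per cell cannot be told apart. Zic1 overlaps Zic4 on the other strand by 3398 bases, and the sources used here do not say whether counting used strand. Zic4 had at most 144 reads in a library.

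Tcf7l2 (ENSMUSG00000024985, chromosome 19, 55741810 to 55933654, plus strand) was at 3.58, 3.27 and 3.44 FPKM in the WT libraries. The KO libraries had 2.78, 1.74 and 2.49 FPKM. The WT values were close together, the KO values were all lower, and KO replicate 2 was lowest. The means were 3.43 ± 0.157 and 2.34 ± 0.535 FPKM (SD, n = 3 each), which puts KO at 68.2% of WT. Its log2 difference was -0.49 ± 0.15, with a 95% interval of -0.84 to -0.13 and a limma adjusted p of 0.243. Oligodendrocyte genes, the other cells known to carry Tcf7l2, had lower values in KO as well. Of 18 such genes, all tested, 13 had KO values below WT with no overlap, where 10.8% of all genes tested did. The median log2 difference of the 18 was -0.52 and none passed the adjusted threshold. Their summed level was 1614 to 2132 FPKM in WT and 997 to 1481 FPKM in KO, and none was at 0 in any library. Their part in the Tcf7l2 values was not tested.

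Lef1 (ENSMUSG00000027985, chromosome 3, 131110471 to 131224356, plus strand) was at 0.555, 0.582 and 0.523 FPKM in the WT libraries, and the KO libraries had 0.569, 0.453 and 0.617 FPKM. The KO library values lay on both sides of WT, with KO replicate 2 lowest and KO replicate 3 highest of all. KO differed from WT by -0.01 ± 0.16 in log2, with a 95% interval of -0.38 to 0.36, and the sign turned under 4 of the 16 alternative settings in which it was tested. It had 72 to 100 reads per library.

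The signalling genes had mostly higher KO means. Ramp3, an accessory protein that sets the ligand choice and traffic of calcitonin-family receptors (ENSMUSG00000041046, chromosome 11, 6658521 to 6677475), was at 2.32, 2.98 and 3.27 FPKM in the WT libraries. The KO libraries had 3.51, 3.80 and 3.35 FPKM, all above WT, although KO replicate 3 exceeded WT replicate 3 by less than their counting error. Means were 2.86 ± 0.487 and 3.55 ± 0.229 FPKM (SD, n = 3 each), with KO at 124% of the WT mean. This came to a log2 difference of 0.28 ± 0.13, with a 95% interval of -0.02 to 0.58 and a limma adjusted p of 0.351. It rests on 59 to 98 reads per library.

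Rgs16, which speeds the shut-off of G protein signals (ENSMUSG00000026475, chromosome 1, 153740349 to 153745468), was at 3.29, 3.40 and 4.70 FPKM in the WT libraries, and the KO libraries had 4.14, 3.90 and 5.48 FPKM. Replicate 3 was highest in each group, and the groups overlapped. The log2 difference was 0.22 ± 0.17 (95% interval -0.17 to 0.61, limma adjusted p = 0.557). Prkch, the eta isoform of protein kinase C (ENSMUSG00000021108, chromosome 12, 73584796 to 73778185), was at 3.04, 2.54 and 3.63 FPKM in the WT libraries, and the KO libraries had 3.27, 4.28 and 3.39 FPKM. KO replicate 2 was the highest library, and the other 2 KO values lay inside the WT range. Its log2 difference was 0.22 ± 0.15 (95% interval -0.13 to 0.56, limma adjusted p = 0.514).

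Plekhg1, a guanine nucleotide exchange factor (ENSMUSG00000040624, chromosome 10, 3740364 to 3967303), had a lower mean in KO, unlike these 3 genes. It was at 1.94, 2.53 and 2.31 FPKM in the WT libraries, and the KO libraries had 1.76, 1.51 and 2.14 FPKM. KO replicate 3 lay above WT replicate 1, so the groups overlapped. The log2 difference was -0.26 ± 0.14 (95% interval -0.60 to 0.07, limma adjusted p = 0.427), with KO at 79.8% of WT.

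Of the adhesion and cytoskeletal genes, Slitrk6 had the lowest KO level relative to WT among the 10, and Tnnt1 was high in a single library. Slitrk6, a leucine-rich repeat protein of the neuronal surface (ENSMUSG00000045871, chromosome 14, 110748580 to 110755149, minus strand), was at 1.33, 1.02 and 1.10 FPKM in the WT libraries. The KO libraries had 0.665, 0.573 and 0.759 FPKM, all below WT, and the KO mean was 57.9% of that in WT. Means were 1.15 ± 0.160 and 0.666 ± 0.0927 FPKM (SD, n = 3 each). The difference in log2 was -0.50 ± 0.15, with a 95% interval of -0.84 to -0.15 and a limma adjusted p of 0.23. These values rest on 78 to 104 reads per library in WT and 44 to 57 in KO. The log2(FPKM + 0.5) scale understates the difference of a gene this low, and voom on the recovered reads gave -0.83 (limma adjusted p = 0.138).

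Tnnt1, the slow-muscle troponin T whose transcript also occurs in thalamic neurons (ENSMUSG00000064179, chromosome 7, 4504570 to 4516382, minus strand), was at 0.393, 0.681 and 0.731 FPKM in the WT libraries. The KO libraries had 0.700, 1.93 and 0.435 FPKM. Only KO replicate 2 stood outside the WT range upward, at 77 reads and a 95% Poisson interval of 1.52 to 2.41 FPKM, where the upper bounds of the other 5 libraries reached at most 1.02 FPKM. Poisson intervals cover counting error only. They also take each read as independent, which reads without molecular identifiers cannot show, so they may be too narrow. The group difference in log2 was 0.36 ± 0.36 (95% interval -0.48 to 1.197, limma adjusted p = 0.661), and without KO replicate 2 it was -0.043.

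Synpo2, an actin-binding protein of the synaptopodin family (ENSMUSG00000050315, chromosome 3, 123076519 to 123236149, minus strand), was at 1.06, 0.791 and 0.963 FPKM in the WT libraries, and the KO libraries had 1.27, 1.501 and 0.906 FPKM. KO replicates 1 and 2 were above all WT libraries and KO replicate 3 was within them. This gave a log2 difference of 0.25 ± 0.17 (95% interval -0.15 to 0.66, limma adjusted p = 0.517).

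**Figure D2:**
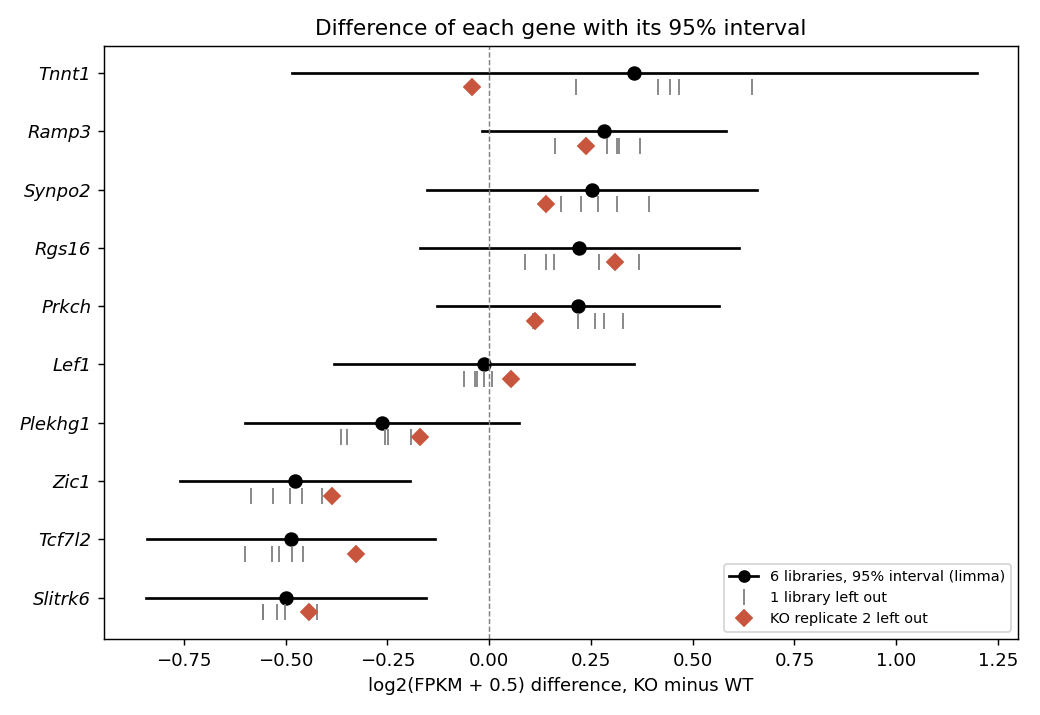
Log2(FPKM + 0.5) difference, KO minus WT (horizontal axis), for each gene, with its 95% interval from limma as a black line, and below it the value with 1 library left out (grey ticks) or KO replicate 2 left out (red diamonds). The intervals of Slitrk6, Tcf7l2 and Zic1 lie below 0, those of the other 7 genes include 0, and leaving out KO replicate 2 takes Tnnt1 to -0.043.

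KO replicate 2 was the extreme library for 9 of the 10 genes, lowest for 5 (Zic1, Tcf7l2, Slitrk6, Plekhg1 and Lef1) and highest for 4 (Tnnt1, Prkch, Synpo2 and Ramp3). Over all genes tested it was lowest for 21.0% and highest for 24.9%. KO replicate 1, the library with Xist, was extreme for 0 of the 10, and over all genes tested it was lowest for 18.5% and highest for 15.5%. Relative to the mean of the other 2 KO libraries, KO replicate 2 lay at a log2 of -0.48 for Tcf7l2, -0.27 for Zic1, -0.28 for Plekhg1 and -0.17 for Slitrk6. It lay at 1.198 for Tnnt1, 0.34 for Synpo2 and 0.32 for Prkch. These positions were described after the library had been seen to stand apart.

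Zic1, Tcf7l2 and Slitrk6 kept a negative difference with any 1 of the 6 libraries left out, WT or KO. Without KO replicate 2 the log2 differences were -0.33 for Tcf7l2, -0.39 for Zic1 and -0.44 for Slitrk6, and the median of all 10 was 0.0050. Without KO replicate 1 they were -0.60, -0.59 and -0.50. No adjusted p among the 10 went below 0.209 with a library left out. Lists of markers of other cell types differed in whether KO replicate 2 stood apart. The mean profile of pallial excitatory genes was 0.96 in KO replicate 2 and 0.10 to 0.14 in the other KO libraries, and that of hypothalamic genes was -1.76 in KO replicate 2 (log2 from the mean of 6 libraries). The mural cell profile was 0.05 there. Endothelial genes had -0.12 there and -0.14 in WT replicate 1. Meningeal and choroid plexus genes were most extreme in WT, at -0.51 in replicate 1 and 0.52 in replicate 3. Of all genes tested, KO lay above WT without overlap for 11.8% and below for 10.8%. The pallial list had 10 of 16 genes above WT in all KO libraries and 1 below, with 0 past the adjusted threshold and a median log2 difference of 0.66, or 0.42 without KO replicate 2. Of 16 hypothalamic genes 12 were tested, all with negative differences, 2 with KO below WT and a median of -0.63, which was -0.27 without KO replicate 2. Striatal projection genes had 6 of 14 above WT in all KO libraries, a median of 0.48 (0.29 without KO replicate 2) and sums of 879 to 1171 FPKM in WT and 1249 to 1721 FPKM in KO. Their part in the values of the 10 genes was not tested.

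**Figure D3:**
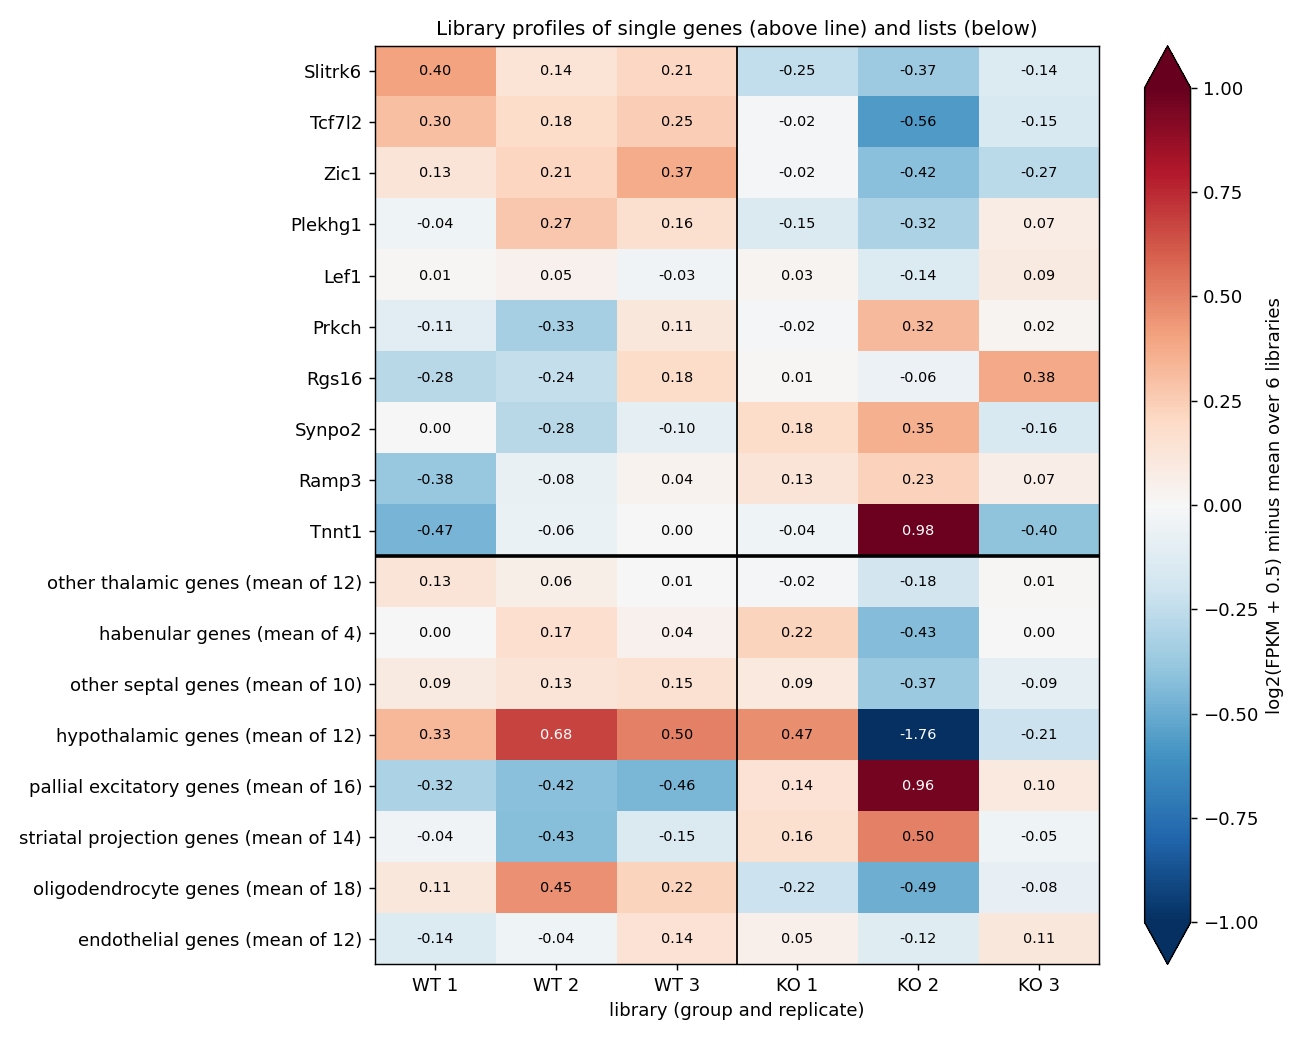
Each gene's log2(FPKM + 0.5) minus its mean over the 6 libraries (colour and printed number), with the 10 genes above the thick line and means over gene lists below it, and WT and KO libraries as columns; the colour scale ends at 1 in each direction. The KO replicate 2 column holds the lowest or highest value of 9 of the 10 genes, at -0.56 for Tcf7l2 and 0.98 for Tnnt1, and of the hypothalamic (-1.76) and pallial (0.96) lists.

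Markers of other cell types were read the same way. Brain endothelium is known to make Lef1, and its 12 marker genes summed to 142 to 181 FPKM in WT and 145 to 199 FPKM in KO, with a median log2 difference of 0.02. Smooth muscle, where Synpo2 is abundant, gave 83.6 to 130.3 FPKM in WT and 110.4 to 116 FPKM in KO over 10 genes of mural cells. Meningeal and choroid plexus genes, 14 in all, summed to 43.9 to 63.7 FPKM in WT and 30.9 to 47.8 FPKM in KO. Ttr alone held 26.9, 29.6 and 24.8 FPKM of this in the WT libraries and 4.01, 0.634 and 18.7 FPKM in the KO libraries. Of the 11 tested, 7 had positive and 4 had negative log2 differences, with a median of 0.028. The 10 astrocyte genes summed to 719 to 793 FPKM in WT and 699 to 831 FPKM in KO. The 10 microglial genes summed to 279.95 to 314 FPKM in WT and 229.7 to 293 FPKM in KO. All 10 had negative log2 differences with a median of -0.28 (-0.16 to -0.30 with 1 library left out). Of the 10, 5 had an unadjusted limma p under 0.05, where 6.85% of all genes tested were lower in KO at that level. KO lay below WT without overlap for 4 microglial genes, where 10.8% of all genes tested did so. None of these genes passed the adjusted threshold, and the part of these cells in the values of the 10 genes was not tested.

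Other genes of thalamus and thalamic reticular nucleus did not share a direction either. Of 14 listed, 12 were tested and 0 passed, 4 with positive and 8 with negative log2 differences and a median of -0.17. Ecel1, a membrane endopeptidase-like gene, had the smallest p and had means of 34.8 ± 2.15 FPKM for WT and 24.9 ± 4.42 FPKM for KO (log2 -0.48 ± 0.13, limma adjusted p = 0.218). Pcp4, which encodes a calmodulin-binding peptide, was at 44.9 ± 15.7 FPKM for WT and 69.4 ± 5.63 FPKM for KO, with every KO library above WT and a log2 difference of 0.69. WT replicate 3 was low at 26.8 FPKM, and without it the difference was 0.36. Kcnc2, a fast potassium channel gene (-0.18), and the homeobox gene Six3 (0.14) were the next by p. Slc17a6, the vesicular glutamate transporter of thalamic and hypothalamic neurons, was added with its values known. It was at 15.5, 17.0 and 13.5 FPKM in the WT libraries, and the KO libraries had 11.8, 5.40 and 15.3 FPKM, lowest in KO replicate 2, and the groups overlapped. Its log2 difference was -0.59 ± 0.34 with all libraries and -0.18 without KO replicate 2.

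Habenular genes spanned a wide range of levels. Pou4f1, the factor that defines habenular neurons, was at 0 in 3 libraries and at most 0.0483 FPKM in any. Of 9 listed, 5 averaged under 0.5 FPKM, Pou4f1 among them, and were not tested. The other 4 were tested and 0 passed, and KO overlapped WT for all 4. Tac2 measured 12.2 ± 2.09 FPKM in WT and 15.6, 3.37 and 7.54 FPKM in the KO libraries. The calcium-binding protein gene Calb2, counted in the thalamic list too, held 38.5, 11.9 and 39.2 FPKM in the KO libraries against 40.9 ± 2.74 in WT. Both were lowest in KO replicate 2. Gpr151 (0.28) and Nwd2 (0.45) had positive log2 differences. Nwd2 was highest in KO replicate 2 at 2.62 FPKM, and without that library its difference was 0.13, while Gpr151 was at 0.16 without WT replicate 3.

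Septal genes other than Zic1 had mostly negative differences with all 6 libraries. Of 11 listed, 10 were tested and 0 passed, 8 negative and 2 positive, with a median of -0.14 that became 0.0083 without KO replicate 2. KO and WT did not overlap for 2 of them, both lower, among them Ngfr. Of all genes tested, 10.8% were lower in KO without overlap. Ngfr, the p75 neurotrophin receptor of basal forebrain cholinergic neurons, was at 20.1, 21.98 and 24.1 FPKM in the WT libraries, and the KO libraries had 15.7, 6.52 and 8.81 FPKM (log2 -1.14 ± 0.28, limma adjusted p = 0.207). Lhx8, a factor of the same neurons, had a log2 difference of -0.45 ± 0.18, with overlap, and -0.29 without KO replicate 2. Crhr2, a receptor of lateral septum, had 0.22. The neurotensin gene Nts, the septal gene of highest level here, measured 17.9 ± 1.23 and 16.8 ± 2.06 FPKM.

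Partners and targets of TCF/LEF factors were spread around 0. Of 21 listed, 19 were tested and 0 passed, 10 positive and 9 negative, with a median of 0.0066. Tcf7, the nearest relative of Lef1, had 2.37 ± 0.493 FPKM for WT and 3.46 ± 0.687 FPKM for KO, with overlap (log2 0.46 ± 0.18, limma adjusted p = 0.299). Its sign was opposite to that of Tcf7l2, a contrast that was not tested. The corepressor gene Tle3 was 2.57, 2.58 and 2.60 FPKM in WT libraries and 3.18 to 3.28 in KO, a log2 difference of 0.28 ± 0.08 (limma adjusted p = 0.23). Lower KO values without overlap came from Ctnnb1, which encodes beta-catenin (90.4 ± 5.61 and 78.2 ± 2.27 FPKM), from the Wnt inhibitor gene Apcdd1 (-0.34) and from the coactivator gene Pygo1 (-0.21). Axin2, a common reporter of Wnt activity, measured 3.95 ± 0.175 and 3.97 ± 0.596 FPKM, and was picked with its values known, outside the naming rule.

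Within their families, the described genes ranged from the highest member to the lowest. Zic1 was the most abundant of 5 Zic genes, ahead of Zic2 at 5.67 ± 0.737 and 5.25 ± 0.764 FPKM in WT and KO. Zic4, which shares a stretch of chromosome with Zic1, was at 0.636 ± 0.127 and 0.510 ± 0.0811 FPKM. Slitrk6 was the least abundant of 6 Slitrk genes. The other 5 had means of 4.14 to 11.7 FPKM in KO, and Slitrk1, at 9.57 ± 0.638 and 11.2 ± 0.360 FPKM, lay higher in every KO library (log2 0.22 ± 0.08, limma adjusted p = 0.269). Whether Slitrk6 and Slitrk1 differ in their response was not tested.

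Ramp3 was the lowest of 3 RAMP genes. Ramp1 measured 21.2 ± 4.30 and 26.2 ± 0.619 FPKM and Ramp2 4.17 ± 0.505 and 5.64 ± 1.10 FPKM, so all 3 had positive log2 differences, at 0.32 for Ramp1 (0.14 without WT replicate 3), 0.38 for Ramp2 and 0.28 for Ramp3. The receptor gene Calcrl, with which RAMPs pair, measured 1.83 ± 0.203 and 1.78 ± 0.378 FPKM. Calcr was at 0.085 FPKM in KO replicate 2 and 0.620 to 0.788 FPKM in the other 5 libraries. Prkch ranked second lowest of 9 protein kinase C genes. Prkcq, the theta isoform, which like Prkch needs no calcium, had every KO library below WT (-0.29, or -0.19 without KO replicate 1). Rgs16 stood far below Rgs4, at 98.8 ± 10.6 and 125 ± 24.3 FPKM.

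Plekhg3 shared the sign of Plekhg1 (-0.30, or -0.18 without KO replicate 2), whereas Plekhg5, at 7.12 ± 0.780 and 9.51 ± 1.05 FPKM, was higher in every KO library (0.39 ± 0.11). Synpo, the dendritic spine relative of Synpo2, measured 8.52 ± 0.918 and 15.3 ± 4.45 FPKM (log2 0.78 ± 0.19, limma adjusted p = 0.205). Among 8 troponin genes Tnnt1 was not the most abundant. Tnni1 measured 2.13 ± 0.214 and 1.38 ± 0.307 FPKM, with lower KO values in all 3 libraries (-0.50), and Tnnt2 0.680 ± 0.151 and 1.03 ± 0.167 FPKM (0.38). No gene of these 8 families passed the adjusted threshold.

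**Figure D4:**
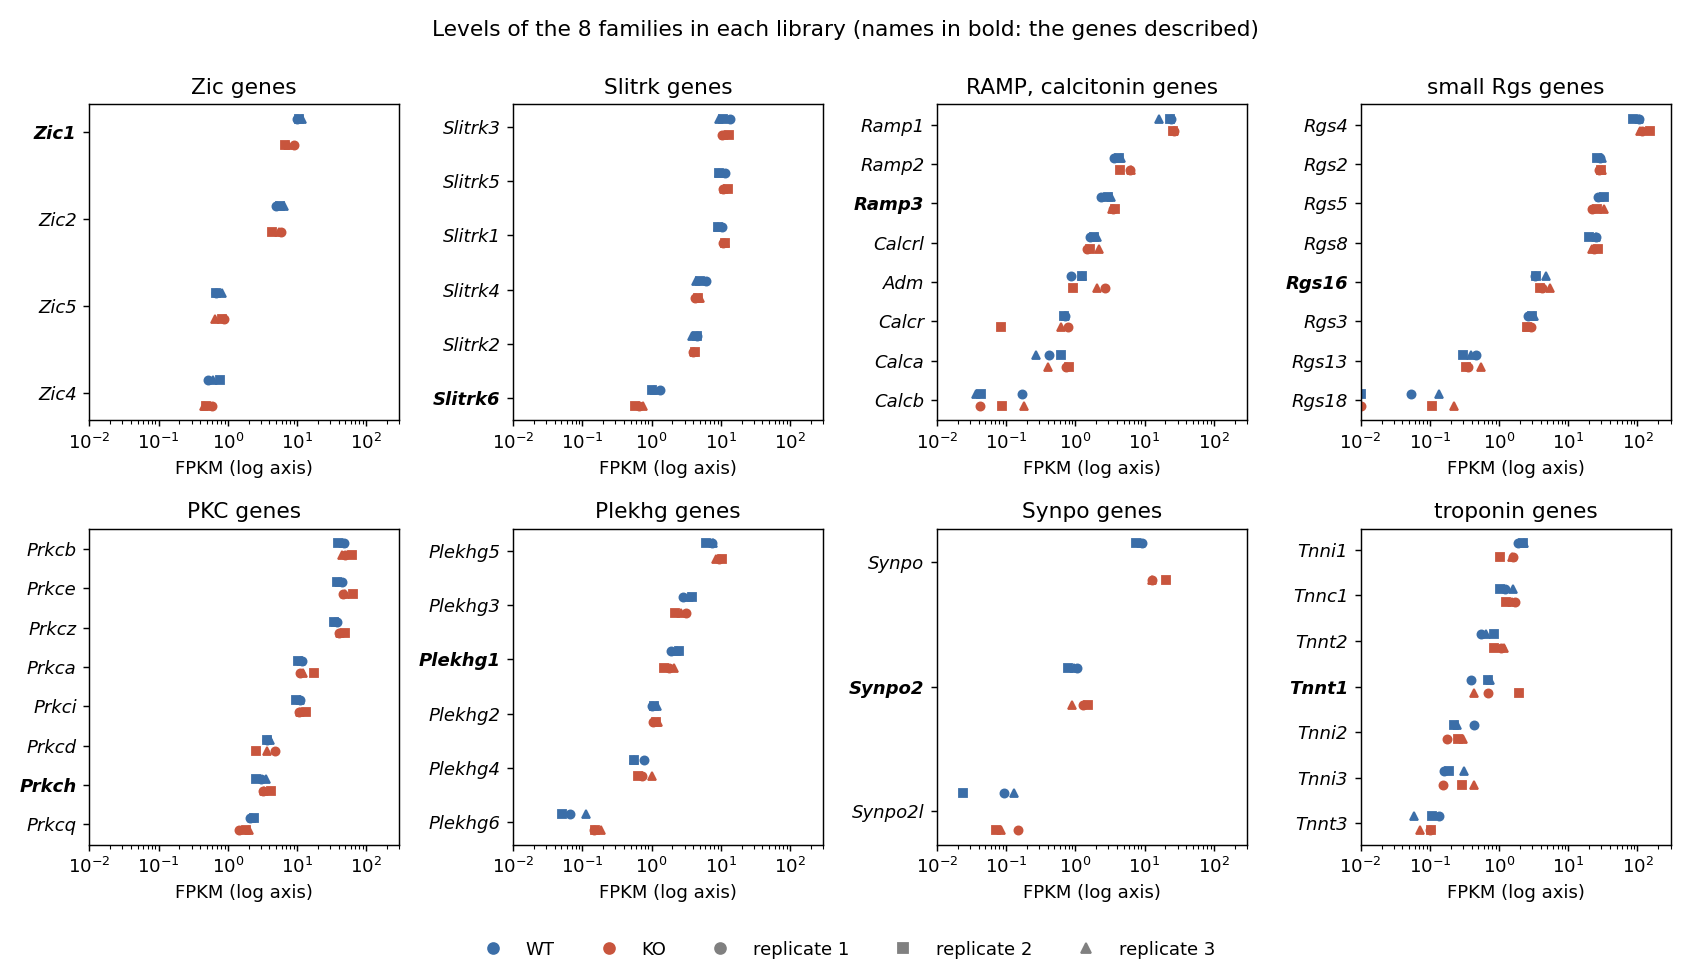
FPKM on a log axis for genes of the 8 families in 3 WT and 3 KO libraries, with the described genes in bold; a value of 0 is drawn at the left edge, and genes with a mean under 0.05 FPKM and a few others are not drawn. Zic1 is the highest Zic gene, Slitrk6 the lowest Slitrk gene, and Tnnt1 in KO replicate 2 (1.93 FPKM) is separate from its other values.

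Genes with a like profile over the 6 libraries were found by the root mean square distance between log2 profiles centred on each gene's mean, over 12230 candidate genes of at least 1 FPKM. Nearest to Tcf7l2 were Fam196b (distance 0.035), Hcrtr2, the orexin receptor gene (0.044), and Btbd11 (0.049). Among all other 16154 tested genes, Zic1 ranked 84 by nearness to Tcf7l2 and Slitrk6 ranked 146. The other 7 genes were spread widely, from Plekhg1 at rank 1051 and Lef1 at 3338, through Rgs16 at 12408, to Tnnt1 at 15563. Nearest to Zic1 were Cdh24 (0.050), Mfn1 (0.059) and Tmem117 (0.066), and nearest to Slitrk6 were Klhl1 (0.067), Fstl5 (0.073) and Soga1 (0.075). Ramp3 lay nearest to Rassf3 (0.032). Prkch lay nearest to Fam171a1 (0.040), Plekhg1 to Tmcc3 (0.036), Synpo2 to Rasgrp2 (0.021), Rgs16 to Ccdc84 (0.058) and Lef1 to Polr2m (0.017). The nearest profile to Tnnt1 was farther off, that of the Wnt-binding protein gene Frzb at 0.161, whose highest library was KO replicate 2 too (5.24 FPKM). With 6 libraries many genes share any given profile, so these distances describe the libraries only.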

How the data were processed

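RNA was measured in 3 WT and 3 KO libraries of tissue labelled basolateral amygdala. Per the labels' protocols, total RNA was extracted with an RNeasy kit and sequenced from SMARTER mRNA-Seq libraries. The authors deposited FPKM values for 54532 genes, with gene coordinates and length. The genome build is GRCm38 (mm10), per the submitters' processing notes. The aligner, counter, annotation release and strand setting were not given in the sources used here.

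Deposited FPKM multiplied by gene length gave whole reads per library (100% of nonzero values within 0.01 of a whole read), with 17647556 to 20813211 reads in genes. The library size that the FPKM imply was 0.969 of the reads in genes in KO replicate 2 and 1.044 in WT replicate 3. It was therefore not a plain total of reads, and how it was set is not known here. The test was limma 3.58.1 in R 4.3.3, with trend and robust settings, on log2(FPKM + 0.5) for 16155 genes averaging at least 0.5 FPKM. P-values were adjusted over all of them by Benjamini-Hochberg at 0.05. Group means are given with SD and log2 differences with standard errors. Exact permutation tests were two-sided. On simulated reads of 16155 genes with no gene changed, the KO and WT comparison gave 7 calls, 0 of them among genes averaging 10 or more reads. The simulation drew each gene independently, with the same dispersion for all and no library standing apart. It therefore does not give the error rate of the test in these libraries.

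The 10 genes and the gene lists were chosen with earlier results of these data known. All 10 were named, with Cntnap4, genes of their families, up to 4 genes of smallest p and the gene of highest level per list, and the 3 nearest profiles. Some genes that this rule takes are not reported here. Slc17a6 and Axin2 were named outside this rule, as were Slc17a7 and Xist for the checks of tissue and label and the genes below the filter in the closing section. Alternatives were pseudocounts, filters, scalings, variance settings, array weights, a replicate block, voom and leaving out each library.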

Additional observations from a re-analysis of the deposited data

How the results depend on the processing

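None of the 10 genes passed the threshold under any of the 17 alternatives, with a lowest adjusted p of 0.127 (Zic1, voom on the recovered reads). Zic1, Tcf7l2, Slitrk6 and Plekhg1 stayed negative and Ramp3, Rgs16, Prkch and Synpo2 positive wherever they were tested. With 1 library left out the differences ranged from -0.59 to -0.39 for Zic1, -0.60 to -0.33 for Tcf7l2 and -0.56 to -0.42 for Slitrk6. The other ranges were wider for their size, at 0.16 to 0.37 for Ramp3, 0.087 to 0.37 for Rgs16, 0.11 to 0.33 for Prkch, 0.14 to 0.39 for Synpo2 and -0.37 to -0.17 for Plekhg1. The lowest values came without WT replicate 1 for Ramp3, KO replicate 3 for Rgs16, WT replicate 2 for Prkch and KO replicate 2 for Synpo2, and the value nearest 0 for Plekhg1 without KO replicate 2. Lef1 turned positive with quantile normalization (0.020), array quality weights (0.023), without WT replicate 2 (0.0062) and without KO replicate 2 (0.053). Without KO replicate 2, Tnnt1 became -0.043 and Zic2 0.0052. With 1 library left out, Lef1 ranged from -0.062 to 0.053, Tnnt1 from -0.043 to 0.65 and Zic2 from -0.19 to 0.0052. The median of the 10 was 0.0050 to 0.12 with 1 library left out. A filter at 5 FPKM kept only Zic1 of the 10 (-0.48). At an unadjusted p under 0.05 there were 3 of the 10 with all libraries. The count over all genes, 2, was 0 with a pseudocount of 0.1, no filter, a filter at 5 FPKM or voom, 1 with quantile normalization and 5 after rescaling to an equal FPKM sum. It was 0 to 9 with 1 library left out. The labels do not say whether equal replicate numbers pair the libraries. Correlations of same-numbered deviations were -0.09, -0.14 and -0.07, which cannot settle it with 3 libraries per group. The limma fit with a replicate block gave 0 genes in all, 1664 at an unadjusted p under 0.05, and 0 of the 10. Depth limits Tnnt1 most, at 16 to 77 reads per library.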

Other observations

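Several listed genes lay under the filter of 0.5 FPKM and were not tested, and some of them had groups without overlap. Pdlim3, a muscle-type gene also found in thalamus, measured 0.402 ± 0.0781 FPKM in WT and 0.563 ± 0.05001 in KO (SD, n = 3 each), with every KO library above WT. Irx2, a homeobox gene of the habenular list, measured 0.539 ± 0.0522 and 0.271 ± 0.152 FPKM, with every KO library below WT. The exchange factor gene Plekhg6, of the same family as Plekhg1, was at 0.0759 ± 0.0318 and 0.161 ± 0.0234 FPKM. Lhx9, a thalamic factor, ranged from 0.0815 FPKM in KO replicate 2 to 0.574 FPKM in WT replicate 2. These genes were named after their values were seen.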
